A study of Drosophila melanogaster with 2 samples.

Results

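The genes of the Mediator complex were examined for binding of the CG1620 protein at their promoters. The members were the 29 protein-coding genes of the BDGP6 annotation named MED followed by a number, together with kto, skd, Cdk8 and CycC, out of 13945 protein-coding genes on chromosomes X, 2L, 2R, 3L, 3R and 4. The assay was ChIP-seq, in which DNA bound to a protein is precipitated with an antibody and sequenced, on adult female Drosophila melanogaster of unknown age, taken whole. The flies came from 1 transgenic line that stably carries CG1620 with green fluorescent protein (eGFP) at its C-terminus, and an antibody against GFP was used. The control that the authors set the precipitate against was not analysed here. There was 1 group of 2 biological replicates, numbered 2 and 3 in the labels, and no second condition. Chromatin was from all tissues of the fly together, so a peak cannot be given to a cell type.

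Mediator is a large complex that carries information from transcription factors bound at regulatory sequences to RNA polymerase II at the promoter. Its head and middle modules contact the polymerase and the general transcription factors, its tail module receives activators, and MED14 forms the backbone that joins them. The kinase module, built of the kinase Cdk8, its cyclin CycC, and the large subunits encoded by kto (Med12) and skd (Med13), binds the rest of the complex reversibly. The members were divided into 7 head, 9 middle, 8 tail and 4 kinase genes, with MED14 kept apart. The assignment of MED27, MED28 and MED30 to the tail is one of several in use.

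A peak was counted for a gene when its summit was no more than 500 bp from any transcription start site (TSS) of that gene, and is called a promoter peak. Of the 29 members, 13 had such a peak in the authors' set of 3894 peaks that passed the irreproducible discovery rate (IDR) procedure, which keeps as many peaks as the ranks of the replicates support. The share was 44.8% (95% exact binomial interval 26.4 to 64.3%), against 26.3% of all protein-coding genes. Counting the strongest 3894 candidates of each replicate alone, the members with a promoter peak numbered 13 in replicate 3, where the share of all protein-coding genes was 25.4%. They numbered 11 in replicate 2, where that share was 25.9%. The value of a peak is the authors' signal, a score relative to a control that is not scaled between lists. Over the 13 members the median pooled signal was 189, and over all protein-coding genes with a promoter peak it was 133. The depth of the libraries is unknown, and the intervals cover counting error over genes and not the spread between flies. No test was made between modules or against other genes.

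The peaks were spread over the modules. They lay at 3 of the 7 head genes (42.9%, interval 9.90 to 81.6%), 5 of the 9 middle genes (55.6%, 21.2 to 86.3%) and 4 of the 8 tail genes (15.7 to 84.3%). In the kinase module skd alone had one, 1 of 4 genes (0.631 to 80.6%), and MED14 had none. All these intervals overlap and each contains the 26.3% of all protein-coding genes, so the counts do not set the modules apart. The median signal of the peaks was 289 for the head and 315 for the tail, where the peaks ranged up to 363 and 472, and 84.1 for the middle, where MED7 at 198 was the strongest. With MED27, MED28 and MED30 counted in the head and MED14 in the tail, the head had 5 peaks of 10 genes, with a median signal of 363 and a highest of 472, and the tail 2 of 6, with a median of 164 and a highest of 248. The order of the head and tail medians thus turns with the assignment.

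**Figure D1:**
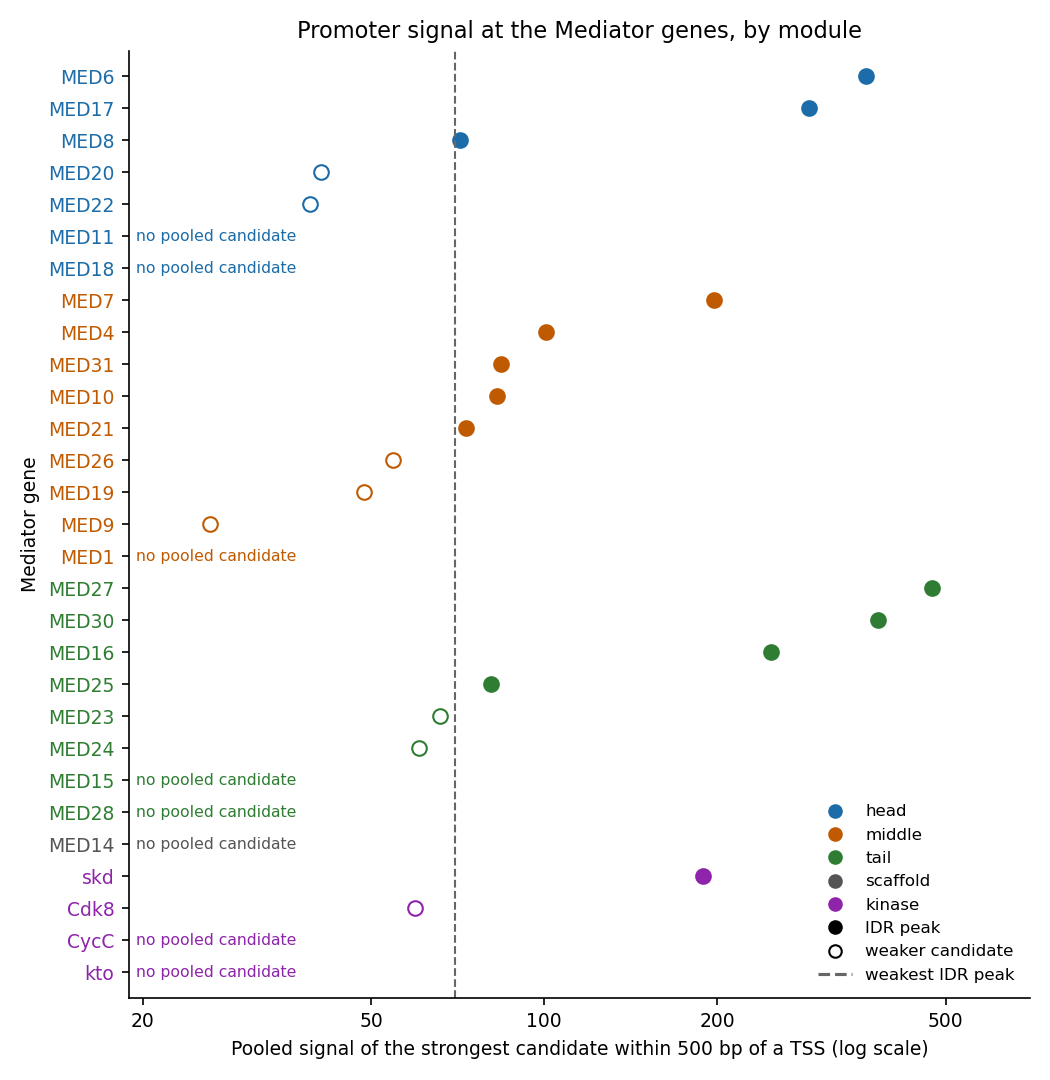
Pooled signal of the strongest candidate within 500 bp of a TSS for each of the 29 Mediator genes, on a log scale, with genes grouped and coloured by module. Filled circles are IDR peaks, open circles weaker candidates, and the dashed line marks the weakest IDR peak at a signal of 70.0. The 4 highest circles are tail and head genes, MED27, MED30, MED6 and MED17, and each of the 4 main modules has members on both sides of the line.

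Sequences around 4 of the summits are given because they belong to strong peaks and differ in the motif letters they hold. MED27 has the strongest peak of the complex, MED6 and MED17 the strongest of the head, and skd the sole peak of the kinase module. Each line is the plus strand of RefSeq release 6 from 50 bp before to 50 bp after the summit, at chr3R:5654939-5655039 for MED27, chr3R:9767760-9767860 for MED6, chr3R:18188991-18189091 for MED17 and chr3L:21027818-21027918 for skd. Capitals mark matches to any of the 8 motifs searched.
MED27: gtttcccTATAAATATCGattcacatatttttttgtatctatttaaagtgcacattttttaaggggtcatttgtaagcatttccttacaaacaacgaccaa
MED6: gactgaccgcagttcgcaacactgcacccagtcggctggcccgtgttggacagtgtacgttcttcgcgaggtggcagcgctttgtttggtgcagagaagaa
MED17: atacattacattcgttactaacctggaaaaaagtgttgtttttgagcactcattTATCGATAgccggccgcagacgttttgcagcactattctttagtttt
skd: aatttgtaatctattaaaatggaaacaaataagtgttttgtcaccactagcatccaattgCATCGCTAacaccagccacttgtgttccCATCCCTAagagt

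The motifs were searched on both strands in these 50 bp either side of the 13 summits and of all 2960 IDR promoter peaks. The DNA replication-related element TATCGATA was found at MED17, with its midpoint 7.5 bp from the summit, and at no other member in this window, or 7.69% of the members' peaks against 5.81% of all promoter peaks. The shorter CGATA, which is contained in it and is a binding site of the insulator protein BEAF-32, was found at 4 members (30.8% against 30.0%). These were MED17, MED8, MED25 and MED27. The TATA box letters TATAAA were also found at 4, namely MED8, MED31, MED25 and MED27 (30.8% against 15.2%), and in MED27 they lie directly beside CGATA, which is there read on the minus strand. At these 4 peaks another gene's TSS was nearer to the summit, and the member's TSS was 150 bp (MED27) to 417 bp (MED8) away. Matches were placed relative to the summit and not to a TSS, so they are not shown to be core promoter elements of the members. GAGAG, a site of the GAGA factor, lay at MED4 and MED25 (15.4% against 10.8%). CATCNCTA, the core of the promoter element called motif 7, lay at skd with 2 matches (7.69% against 4.63%). There the TSS of the neighbouring gene Pdss2 was nearer to the summit than that of skd. GGTCACAC (3.68% of all promoter peaks), CAGCTG (7.80%) and AACCCCC (0.743%) were in none of the 13 windows. The MED6 window, printed above, held none of the 8 motifs, and neither did those of MED7, MED10, MED16, MED21 and MED30. With 13 peaks, 1 peak is 7.69% of the total, so differences of this size rest on 1 or 2 peaks. The windows of the members had a median G and C content of 37.6% and ranged from 23.8% at MED31 to 58.4% at MED6, and the median over all promoter peaks was 39.6%.

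Among the head genes, MED6 and MED17 had strong peaks in both replicates. MED6, a conserved subunit of the head, had a pooled signal of 363 (rank 194), with 267 in replicate 2 (rank 192) and 98.1 in replicate 3 (rank 214). Its summit (3R, 9767810) lay in the 5′ untranslated region, 5 bp downstream of a TSS. MED6 was also the sole member with 2 IDR promoter peaks. The other (3R, 9768471) had a pooled signal of 114.8 (rank 1950), 31 bp downstream of a second TSS. MED17, a central subunit of the head, had a pooled signal of 289, with 199 in replicate 2 (rank 395) and 88.8 in replicate 3 (rank 283), and its summit (3R, 18189041) was 31 bp upstream of the TSS. The MED8 peak (2R, 20327223) stood near the limit of the set, with a pooled signal of 71.3 at rank 3797. It came from replicate 3 more than from replicate 2, at ranks 1979 (signal 30.4) and 6019 (39.4).

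Of the other head genes, MED20 and MED22 had weaker pooled candidates, with signals of 40.9 (rank 8085) and 39.2 (rank 8645). The pooled MED20 summit lay 150 bp upstream of its TSS, in coding sequence of the neighbouring gene Trf, which encodes a relative of the TATA-binding protein. That of MED22 lay 423 bp upstream of its TSS, inside CG43867. TSSs of Lztr1 (134 bp) and CG43867 (259 bp) were nearer to it. The replicates placed their strongest MED20 candidate apart from each other, 482 bp upstream in replicate 2 (signal 20.2, rank 17413) and 207 bp upstream in replicate 3 (17.5, rank 4077). MED11 and MED18 had no pooled candidate. Each had 1 candidate in 1 replicate with a signal near the end of that list, 7.19 in replicate 3 for MED11 (rank 26131) and 14.7 in replicate 2 for MED18 (rank 28471). The weakest candidates of all were at 6.69 in replicate 3 and 14.2 in replicate 2.

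In the middle module, MED7, which pairs with MED21 to form the hinge of that module, had the strongest peak. Its pooled signal was 198, with 134 in replicate 2 (rank 905) and 64.6 in replicate 3 (rank 609), and its summit (3R, 10761090) lay 58 bp upstream of the TSS. The MED21 peak (3L, 25115976) was weaker and uneven between replicates. Its pooled signal was 73.1 (rank 3654), with 37.5 in replicate 2 at rank 6488 and 35.3 in replicate 3 at rank 1623. MED31 was uneven in the other direction, with a pooled signal of 84.1 (3R, summit 4641747), 70.4 in replicate 2 (rank 2652) and 12.8 in replicate 3 (rank 7187). MED4 (3L, 7250610) had a pooled signal of 100.6, with 78.0 in replicate 2 (rank 2265) and 24.2 in replicate 3 (rank 2675). MED10 (3L, 16232072) had 82.7, with 61.2 (rank 3237) and 20.5 (rank 3312). These last 2 were weak peaks at which the replicates gave close ranks.

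The other middle genes had no IDR promoter peak. MED19 ranked within the strongest 3894 in each replicate, at 3831 in replicate 2 (signal 54.3) and 3475 in replicate 3 (19.8), and yet had a pooled signal of 48.6 at rank 6314. The summits of the replicates differed there. The one in replicate 2 lay 60 bp downstream of the TSS, as did the pooled one, and the one in replicate 3 lay 77 bp upstream. MED26, on chromosome 4, had pooled signal 54.6 (rank 5408) and no candidate in replicate 3. MED9 had pooled signal 26.2 (rank 17247) and none in replicate 3 either. For MED1, the subunit through which nuclear receptors contact Mediator in mammals, all 3 candidate lists were empty at the promoter.

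The tail genes, as assigned here, ranged from the strongest peaks of the complex to no candidate at all. MED27 and MED30, which had the strongest, belong to the head in the other assignment. MED27 had a pooled signal of 472, rank 93 of the 3894 IDR peaks, with 331 in replicate 2 (rank 99) and 148 in replicate 3 (rank 77), and its summit (3R, 5654989) lay 150 bp upstream of the TSS. MED30 followed with 382 (3L, summit 654265), 287 in replicate 2 (rank 156) and 103 in replicate 3 (rank 194). MED16 had 248 (2R, summit 22183124), with 177 (rank 524) and 73.5 (rank 451), and its summit lay 14 bp from the TSS. At these 3 genes both replicates gave a high rank. MED25 was weaker, with 80.6 pooled (3R, summit 20008610), 51.7 in replicate 2 (rank 4082) and 30.0 in replicate 3 (rank 2006).

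MED23 and MED24 fell just below the IDR set, with pooled signals of 65.8 (rank 4216) and 60.5 (rank 4704), and MED28 had a candidate in replicate 2 alone (signal 18.0, rank 21092). MED23 ranked 4097 in replicate 2 and 4603 in replicate 3. MED24 ranked 4179 and 10965. MED15, a subunit that binds activators directly, had no candidate within 500 bp of a TSS in any list. MED14, the backbone, had none either.

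In the kinase module the skd peak had a pooled signal of 189 (rank 872), with 118 in replicate 2 (rank 1128) and 66.1 in replicate 3 (rank 581). Its summit (3L, 21027868) lay 434 bp upstream of the nearest skd TSS. Cdk8 had a weaker pooled candidate 10 bp upstream of its TSS, with a signal of 59.7 (rank 4785), 49.4 in replicate 2 (rank 4342) and 13.4 in replicate 3 (rank 6455). For kto there was a candidate in replicate 2 alone (22.0, rank 15163), and CycC had none in any list. The kinase and its cyclin thus both stood outside the IDR set, as did most protein-coding genes, of which 26.3% had an IDR promoter peak.

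The ranks in the 2 replicates were compared for the members with an IDR peak, which were chosen on the signal pooled from those replicates. The 7 members with peaks among the 1947 strongest of the IDR set ranked no lower than 1128 in replicate 2 and 609 in replicate 3. These were MED27, MED30, MED6, MED17, MED16, MED7 and skd, 24.1% of the members, against 15.7% of all protein-coding genes with a promoter peak among them. Of the other 6 peaks, those of MED8, MED21, MED25 and MED31 each fell outside the strongest 3894 candidates of 1 replicate. The matching share of all protein-coding genes with an IDR promoter peak was not taken, so this count cannot be read as a trait of the members. The ratio of the replicate 2 signal to the replicate 3 signal ranged from 1.06 at MED21 to 5.51 at MED31, with a median of 2.24 over the 13 members. Over the 3608 protein-coding genes with an IDR promoter peak and candidates in both replicates it was 2.67 (interquartile range 2.16 to 3.47). The signals are not scaled between lists, so the ratio measures the lists and not binding.

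**Figure D2:**
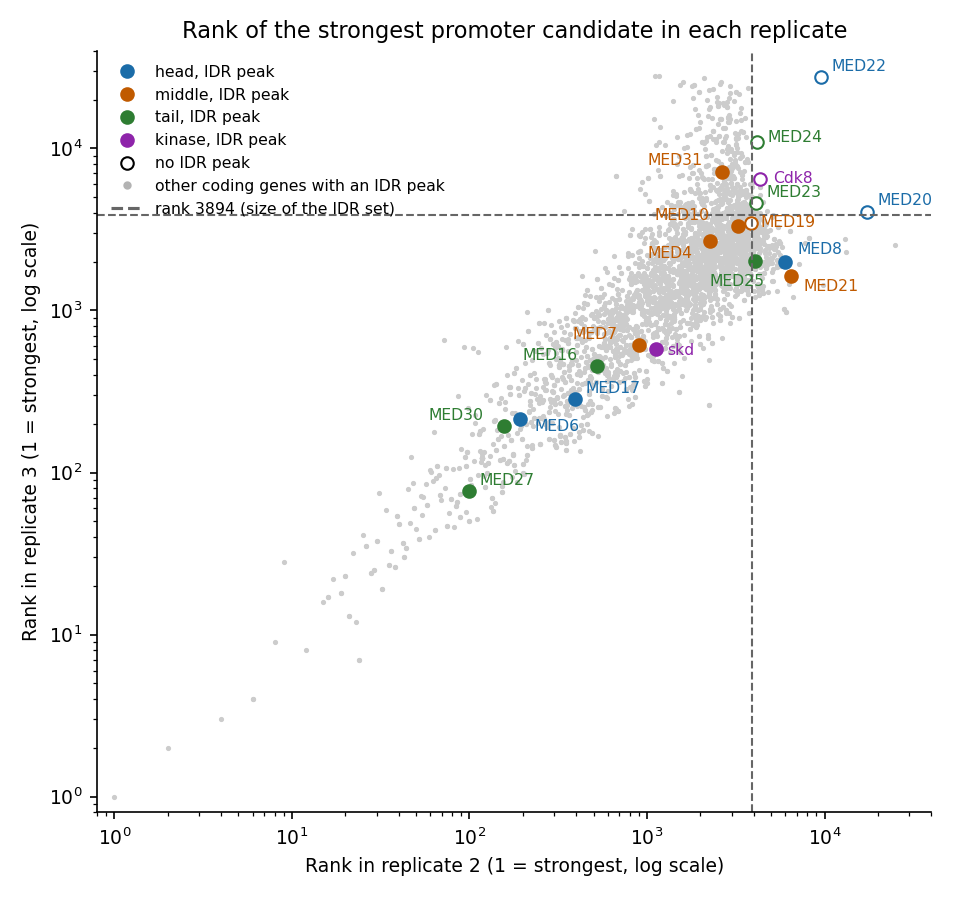
Rank of the strongest promoter candidate in replicate 2 (x axis) and replicate 3 (y axis), both on log scales with 1 as the strongest, for the 19 Mediator genes with a candidate in both (coloured by module, open where there was no IDR peak) and for all protein-coding genes with an IDR promoter peak (grey). Dashed lines mark rank 3894. Among the IDR peaks, MED27, MED30, MED6, MED17, MED16, MED7, MED4 and MED10 lie near the diagonal and skd farther from it. MED31 and MED21 lie on opposite sides of it.

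Below the IDR set, 8 of the 16 members without an IDR promoter peak had a weaker pooled candidate at the promoter, against 42.4% of all protein-coding genes without such a peak. Their signals ran from 26.2 at MED9 to 65.8 at MED23, where the weakest IDR peak had 70.0 and the weakest pooled candidate 18.9. MED8 at 71.3 and MED21 at 73.1 stood just inside the limit, and MED23, MED24 and Cdk8 just outside it. The members without a promoter candidate in any of the 3 lists were MED1, MED14, MED15 and CycC, 13.8% of the members, against 33.4% of all protein-coding genes.

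At 11 of the 13 peaks, a TSS of at least 1 other protein-coding gene was also within 500 bp of the summit. The share was 84.6% (interval 54.6 to 98.1%), against 60.7% of all protein-coding genes with an IDR promoter peak, each taken at its strongest. Likewise 11 summits lay in intergenic sequence, against 61.7% of those genes. Both shares over all genes lie within the members' interval. The MED27 summit lay 128 bp upstream of elm and 150 bp upstream of MED27. That of MED30 lay 98 bp upstream of Rev1, which encodes a DNA polymerase of translesion synthesis, and 176 bp upstream of MED30. MED6 and Naa80, which encodes the N-terminal acetyltransferase of actin, have TSSs 19 bp apart, and the summit lay 5 bp from the one and 24 bp from the other. The summit at MED7 was 220 bp upstream of Cap-H2, a condensin II gene, and those at MED16 and MED17 were 245 bp upstream of CG11170 and 334 bp upstream of CG12321. MED10 shares its peak with PDCD-5, whose TSS is 46 bp away. A peak between 2 such genes cannot be given to one of them from these data.

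At 7 of the 13 peaks a TSS of another gene was closer to the summit than that of the member, or 53.8% (interval 25.1 to 80.8%), against 30.4% of all protein-coding genes with an IDR promoter peak. The skd summit lay 47 bp upstream of Pdss2, which encodes an enzyme of coenzyme Q synthesis, and 434 bp from skd. The MED8 summit was 47 bp upstream of CG8929 and 417 bp from MED8. That of MED25 was 98 bp upstream of Hs6st, a heparan sulfate sulfotransferase gene, and 337 bp from MED25. The MED31 summit lay 91 bp inside CG9775, and MED31 has a TSS in common with slx1. At MED4 the nearer TSS was that of asRNA:CR43470, at 30 bp against 83 bp. MED27 and MED30, above, were the other 2. Weaker pooled candidates, outside the IDR set, lay nearer to a TSS of some of these members. They lay 12 bp upstream at MED31 (signal 34.1), 109 bp upstream at MED8 (41.2) and 138 bp upstream at MED25 (49.98). At a second TSS of skd they lay 206 bp upstream (53.85) and 17 bp downstream (38.5). MED4, MED27 and MED30 had no second pooled candidate. Counting a peak for the nearest gene alone left 6 members, MED6, MED7, MED10, MED16, MED17 and MED21, or 20.7%, against 19.2% of all protein-coding genes counted in the same way. MED21 was the sole member whose peak had no other TSS within 500 bp of its summit.

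**Figure D3:**
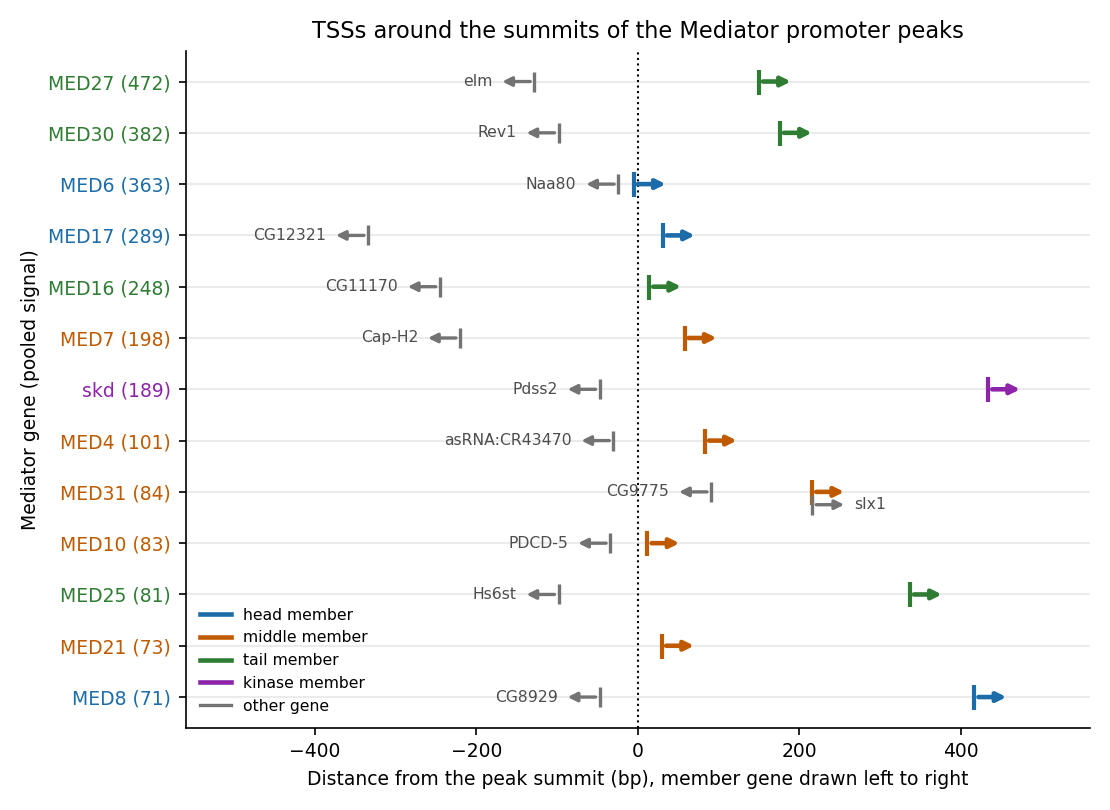
Position of TSSs relative to the summit (dotted line at 0) for the 13 Mediator promoter peaks, in bp, with the member drawn from left to right in the colour of its module and other genes in grey, ordered by pooled signal. Arrows give the direction of transcription and not the length of the gene. In skd, MED25 and MED8 the neighbour lies 47 to 98 bp from the summit and the member 337 to 434 bp from it.

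A divergent partner, meaning another protein-coding gene on the opposite strand with a TSS up to 500 bp upstream, was present for 19 of the 29 members, or 65.5%, against 27.4% of all protein-coding genes. Among genes with such a partner, 11 of 19 members had an IDR promoter peak, or 57.9% (interval 33.5 to 79.7%), against 54.0% of all protein-coding genes with one. Among genes without, 2 of 10 members had a peak, MED4 and MED21 (2.52 to 55.6%), against 15.8% of all protein-coding genes without one. At this reach of 500 bp, which was chosen after the values were seen, the share of all genes lay within the members' interval in both classes. The reading did not hold at a reach of 250 bp. There 3 of 10 members with a partner had a peak, or 30.0%, against 51.4% of all protein-coding genes so arranged. Without a partner at that reach, 10 of 19 had one, or 52.6% (28.9 to 75.6%), against 22.1%. This last class took in the genes whose nearest partner lay 251 to 500 bp away. They made up 9 of its 19 members, with 8 of the 10 peaks, and 1835 of its 11965 genes. How much of the difference over all genes goes with the arrangement was not tested. The head had a divergent partner at 6 of 7 genes, the tail at 6 of 8, the middle at 5 of 9 and the kinase module at 2 of 4.

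The counts differed with the distance to the partner. The 3 members with a partner within 250 bp and a peak were MED6, MED10 and MED31, and the interval of their share was 6.67 to 65.2%. With the nearest partner 251 to 500 bp away, 8 of 9 had one, or 88.9% (51.8 to 99.7%), against 56.9%, and MED19 was the exception. The 7 members with a close partner and no IDR peak were MED9, MED18, MED20, MED22, MED23, MED28 and CycC, at 26 bp for CycC to 164 bp for MED22. The division by distance was made after the values were seen. Both intervals are wide, and each contains the share of all protein-coding genes in its class.

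**Figure D4:**
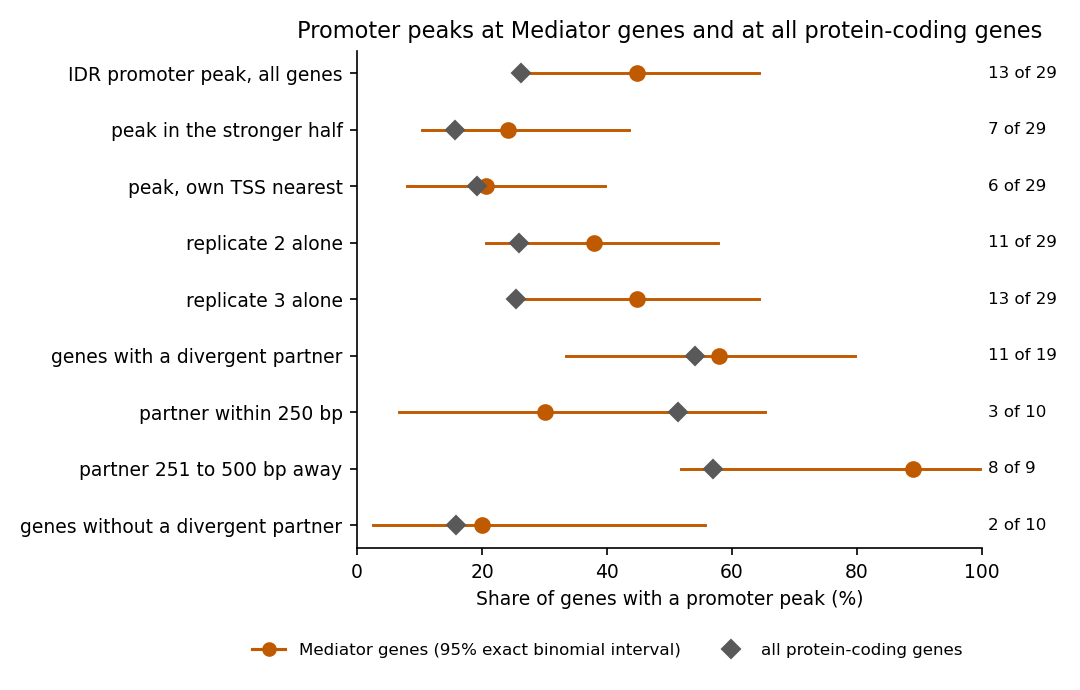
Share of genes with a promoter peak, in percent, for the Mediator genes (circles, with 95% exact binomial intervals and counts at the right) and for all protein-coding genes (diamonds), under different ways of counting and within classes of promoter arrangement. The circle and diamond stand at 44.8% and 26.3% over all genes, at 57.9% and 54.0% among genes with a divergent partner, and at 20.7% and 19.2% where the nearest gene alone is counted. They stand at 30.0% and 51.4% with a partner within 250 bp, and at 88.9% and 56.9% with the nearest 251 to 500 bp away. In both of these classes the diamond lies within the members' interval.

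Other genes that act with Mediator at the promoter were listed for comparison. Of 12 genes for RNA polymerase II subunits, 7 had an IDR promoter peak (58.3%, median signal 185), with Polr2F (325), Polr2H (225) and Polr2B (196) the strongest. Of 30 general transcription factor genes, 18 had one (median 114.7). The strongest was that of Ssl1, a subunit of TFIIH (757), followed by TfIIA-S (390) and TfIIA-L (219.5), the 2 subunit genes of TFIIA. Of 12 genes for elongation kinases and pause factors, 9 had one (median 134), led by Nelf-E (434), Nelf-A (284) and TH1 (150.5). In each of the 3 lists over 26.3% of the genes had a peak, the share of all protein-coding genes, and no test compared them. In both replicates the promoter candidates of Nelf-E, TH1 and TfIIA-L were also those of another protein-coding gene. Neighbouring genes were not examined further for these lists, so a peak there cannot be given to the listed gene alone. The intersex gene ix, which encodes the Med29 subunit but falls outside the naming rule, had 0 promoter candidates in every list.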

How the data were processed

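Peak lists on the dm6 build were analysed, made from anti-GFP ChIP-seq. The authors deposited, per the text files beside the lists, candidate peaks of each replicate and of the pooled data, made with 1 control file, and an optimal IDR set derived from them. For the aligner, peak caller and IDR threshold, names and versions were not given in the sources used here. Each peak carries the authors' signal value, not scaled between lists, and each candidate list stops at 30000 entries. The IDR set held 3894 peaks, equal to the top of the pooled list by signal. Lists on dm3 were not used.

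No line of a list was repeated, and a summit is the start plus the deposited offset. TSSs were the 5′ ends of Ensembl release 115 transcripts, without pseudogenes and transposable elements. Sequence was RefSeq release 6, in which 99.8% of 30593 annotated start codons read ATG. Where several candidates lay at a promoter the strongest was used. Peaks of different lists were matched when 50% or more of one of them was covered. Intervals are exact binomial (Clopper-Pearson, 95%). Python 3.11.15, numpy 2.4.6, pandas 2.3.3 and scipy 1.17.1 were used, and the assignment of summits to TSSs was tested on simulated data. Every member is named, and other genes where they share an IDR promoter peak with a member or lead a list. Genes that share a weaker candidate with a member are named in part. The members, modules, lists and motifs were chosen with earlier results of these data known, and the division by divergent partner and its distances were chosen after values were seen. The alternatives were promoter windows of 250 and 1000 bp, stronger peaks, each replicate alone, peaks strong in each replicate, the nearest TSS, other modules and a wider motif window.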

Additional observations from a re-analysis of the deposited data

How the results depend on the processing

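The count of 13 members was 10 with a promoter window of 250 bp, 14 with 1000 bp and 9 with peaks strong in each replicate. For these rules the share of all protein-coding genes was not taken, so the counts cannot be read as a stable excess. With either replicate left out the count ranged from 11 to 13. It was 7 among the 1947 strongest IDR peaks (all protein-coding genes 15.7%) and 6 with the nearest TSS alone (19.2%). MED6, MED7, MED16 and MED17 had a peak in all 7 of these alternatives. The middle module fell from 5 to 1 among the 1947 strongest, and to 3 with the nearest TSS alone and with peaks strong in each replicate. The nearest TSS alone left 1 tail gene and 0 kinase genes, and the 250 bp window also left 0 kinase genes. The other module assignment gave the head 5 (median signal 363) and the tail 2 (164). Without replicate 2, MED31 was lost and MED19 gained. Without replicate 3, MED8, MED21 and MED25 were lost and MED19 gained. With 100 bp either side of the summit, TATCGATA was found at 2 members (all promoter peaks 10.5%), CATCNCTA at 2 (9.12%), GGTCACAC at 1 (7.60%) and CAGCTG at 1 (15.4%). In the same window TATAAA was found at 6 (30.1%), CGATA at 6 (46.3%), GAGAG at 3 (20.7%) and AACCCCC at 0 (1.25%). The wider window raised the shares of all promoter peaks too. With partners sought to 1000 bp, 11 of 21 members with a partner (all genes 48.4%) and 2 of 8 without (13.7%) had a peak. With partners sought to 250 bp these were 3 of 10 (51.4%) and 10 of 19 (22.1%). Both reaches were chosen after seeing the data. Apart from fewer peaks or a narrower rule, which the alternatives impose, the cause was not tested. No paired analysis was possible because there is 1 group. The lists give no read counts, so the precision of single signals is unknown.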

Other observations

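Of the 16 members without an IDR promoter peak, MED15 lay nearest to an IDR summit. The nearest IDR summit to a MED15 TSS was 604 bp away, with a signal of 132, so MED15 has an IDR promoter peak with a 1000 bp window. The next were kto at 2267 bp, MED11 at 2769 bp and MED18 at 2959 bp. The MED26 TSS on chromosome 4 was the most distant of all members from an IDR summit, at 78108 bp. No IDR summit lay within the transcribed region of any member other than MED6, which held 2.

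By chromosome, 6 of 8 members on 3R had an IDR promoter peak (all protein-coding genes 26.6%), 5 of 12 on 3L (25.3%) and 2 of 4 on 2R (26.0%). None of the 2 on X, the 2 on 2L or the 1 on chromosome 4 had one, where 30.5%, 23.6% and 26.2% of all protein-coding genes did. With so few members on each chromosome, these counts are descriptions.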
